A study of Homo sapiens with 18 samples.

Results

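OCI-Ly1 cells given 500 nM JIB-04 were compared with OCI-Ly1 cells given 150 nM, gene by gene, in bulk RNA sequencing data. The comparison took the 3 libraries of each dose by their labels, 6 of the 18 libraries of the series, and no DMSO library entered the contrast. OCI-Ly1 is a human cell line derived from a diffuse large B-cell lymphoma, and JIB-04 is a small molecule that inhibits Jumonji (JmjC) histone demethylases. The series also held OCI-Ly1 libraries with 0.01% DMSO, the vehicle, and the same 3 treatments of TMD8, another diffuse large B-cell lymphoma line, with 3 libraries in each group. The medium was IMDM for OCI-Ly1 but RPMI for TMD8, so line and medium cannot be told apart. RNA was depleted of ribosomal RNA and libraries were prepared in technical triplicate, and neither the length of treatment nor the number of cultures behind a triplicate is given. The p-values therefore measure the spread between these libraries, which may be technical only.

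Demethylases of the JmjC family use iron and 2-oxoglutarate to take methyl groups off histone lysines, and members of the KDM4 group act on lysine 9 of histone H3, a mark of heterochromatin. Several of the gene groups below are known for their response to stress. In the integrated stress response, kinases that sense amino-acid shortage, unfolded protein in the endoplasmic reticulum or haem shortage phosphorylate the translation factor eIF2 alpha, and the transcription factor ATF4 then drives genes for amino-acid synthesis, uptake and tRNA charging. Metallothioneins are small zinc-binding proteins whose genes respond to free zinc through the factor MTF1. Replication-dependent histone genes are transcribed in S phase, and mitotic genes peak in G2 and M phase.

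Library totals were 19283474 to 25042724 estimated counts for the lower dose and 24830313 to 32651115 for the higher. The B-cell genes CD79A and PAX5 were present in all 6 libraries, at 210.4 to 276.6 and 33.3 to 49.7 TPM (a measure scaled for transcript length and depth). Of the germinal-centre B-cell markers, BCL6, MME and MYBL1 measured 79.3 to 96.6, 61.5 to 93.0 and 10.8 to 17.9 TPM. LMO2, another such marker, lay between 0 and 1.06 TPM. Of 16 markers of T and NK cells, 9 were tested, 5 were called lower at 500 nM and 0 higher, and their summed level was 48.9 to 50.8 CPM (counts scaled to library size) at 150 nM and 32.8 to 35.3 CPM at 500 nM, without overlap. CD3G and CD3D, parts of the T-cell receptor complex, were already transcribed with DMSO. CD3E, CD2, CD4 and NKG7, other markers of T and NK cells, reached at most 0.506, 0.842, 0.034 and 0.806 TPM in the 6 libraries. The myeloid enzyme gene MPO was at 0 counts in every library. In bulk RNA, fewer cells of a type and less RNA per cell cannot be told apart. The part that such markers or the depth had in the results was not tested.

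Of 15638 genes tested, 46.2% were called at an adjusted p under 0.05 (edgeR quasi-likelihood test): 3930 genes, 25.1%, were higher at 500 nM and 3302, 21.1%, were lower. Most of these changes were small, since 58.1% of the called genes moved by less than 0.5 on the log2 scale. Past a log2 fold change of 1, 777 genes were higher and 244 lower, together 6.53% of those tested, and past 2 the numbers were 221 and 8. With genes split into 4 equal bins by mean level, 523 of the 777 rises and 135 of the 244 falls lay in the lowest bin (0.183 to 3.06 CPM), and in the highest bin 34 genes rose and 57 fell past 1. For 8695 genes, 55.6% of those tested, the 3 libraries of one dose did not overlap the 3 of the other. The median over all genes was 0.0058.

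The balance of rises and falls rested on the scaling. Of the called genes, 54.3% were higher with TMM scaling, 67.9% with library size alone, 72.7% on log2(TPM + 1), 72.6% on log2(TPM + 0.1) and 31.8% when log2(TPM + 1) was centred on the median of each library. The median over all genes was 0.106 on log2(TPM + 0.1), and centring moved it to -0.109. Low and high genes also differed. Over all calls, 19.0% of the lowest bin were called higher and 8.29% lower, while in the highest bin 20.7% were higher and 38.9% lower. With library size alone the highest bin had 29.9% higher and 29.4% lower, and on log2(TPM + 1) it had 28.5% and 21.6%, so the excess of falls among the most abundant genes depended on the scaling.

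**Figure D1:**
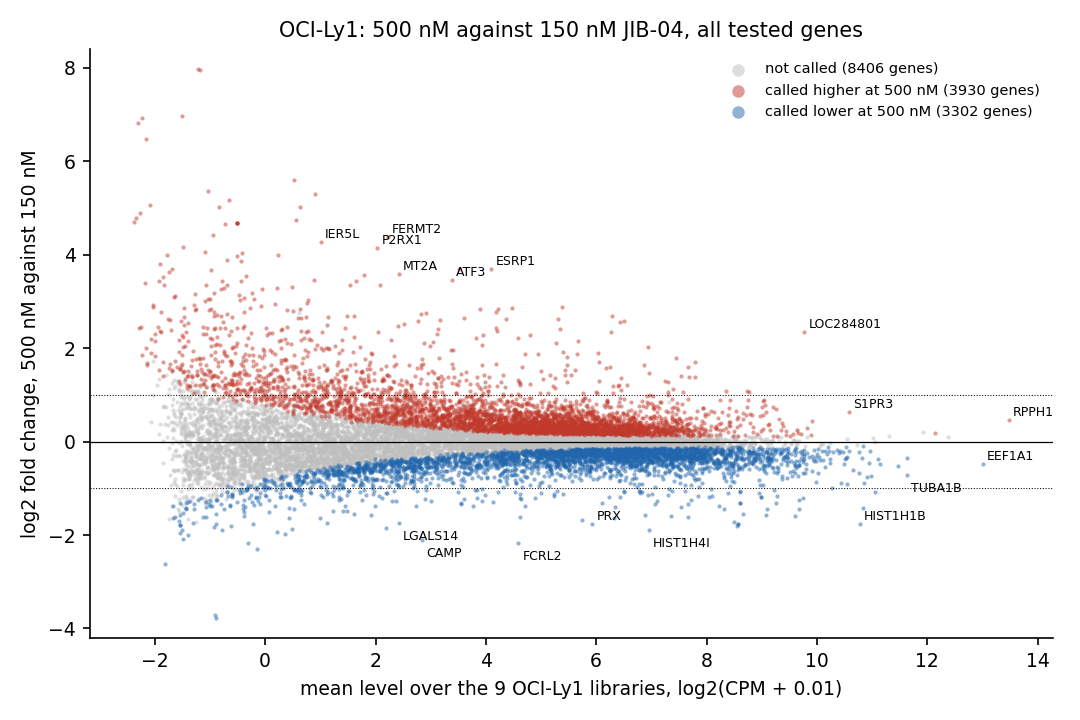
Log2 fold change of 500 nM against 150 nM (vertical axis) for each tested gene, by its mean level over the 9 OCI-Ly1 libraries (horizontal axis, log2(CPM + 0.01)). Red points are the 3930 genes called higher, blue points the 3302 called lower and grey points the rest; dotted lines mark a log2 fold change of 1 either way, and 1 gene, PCNA-AS1, lies above the plotted range. Most points past the dotted lines lie on the upper side, 777 against 244.

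Genes of the integrated stress response rose together. Of 21 genes in this list 18 were tested, and 18 of 18 were called higher, against 25.1% of all genes, with a median log2 fold change of 2.15. CHAC1, an enzyme that degrades glutathione and a known ATF4 target, had 5.11, 4.11 and 3.63 CPM with DMSO, 15.1, 14.3 and 13.8 CPM at 150 nM and 112, 108 and 97.9 CPM at 500 nM. All 3 libraries at 500 nM lay above every other library (log2 fold change 2.88 with SE 0.086, edgeR adjusted p = 7.8e-14). CEBPB, a bZIP transcription factor, measured 2.97, 3.404 and 3.39 CPM with DMSO, 7.18, 9.16 and 6.65 CPM at 150 nM and 58.9, 56.4 and 51.7 CPM at 500 nM. It rose without overlap (log2 fold change 2.85 with SE 0.10, edgeR adjusted p = 5.2e-13). ATF3, a transcription factor of the same class, was close to the detection floor with DMSO, at 0.397, 0.176 and 0.565 CPM, and measured 2.99, 2.44 and 2.29 CPM at 150 nM and 34.2, 26.3 and 25.00 CPM at 500 nM. Its rise was the largest of the 3 (log2 fold change 3.46 with SE 0.16, edgeR adjusted p = 1.0e-11).

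The remaining members of this list covered the transcription factors, the feedback arm and the secreted factors of the response. ATF4 itself was already abundant at 579 ± 8.796 CPM at 150 nM and reached 814 ± 22.8 CPM at 500 nM (SD, n = 3), a log2 fold change of 0.49. DDIT3, the pro-apoptotic factor CHOP, rose by 2.29 on the log2 scale, and PPP1R15A, the phosphatase subunit that reverses eIF2 alpha phosphorylation, by 2.63. The pseudokinase TRIB3 rose by 2.02. SESN2 and DDIT4, inhibitors of mTORC1 signalling, measured 207 ± 14.8 and 209 ± 21.2 CPM at 500 nM (SD, n = 3), with log2 fold changes of 2.55 and 2.58. GDF15, a secreted stress factor, had the largest fitted change of the list at 4.05 but stayed low, at 2.04 ± 0.233 CPM at 500 nM (SD, n = 3). The smallest rise was that of JDP2, at 0.26. The summed level of the list moved from 1234, 1231 and 1213 at 150 nM to 2793, 2688 and 2538 at 500 nM, in CPM, with 1000.1, 1015 and 996 CPM with DMSO.

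The C/EBP-ATF response element (CARE) is the sequence through which ATF4 and its C/EBP partners are known to act. Promoter windows are shown for CHAC1 and ATF3 of this list and for ASNS, a gene of asparagine synthesis. These 3 rose, and they are shown because they held a match before the start site. CEBPB, CTH, PSAT1, SLC6A9 and WARS rose too and were searched, but held none. The search used TGATGNAAN on both strands of RefSeq promoters (GRCh38.p14), from 250 bases before to 50 after the start site, and the motif can overlap a CCAAT match. Capitals mark the match, and each window is read 5′ to 3′ on the strand of the gene. The windows are chr15:40953249-40953281 (plus strand), chr1:212565204-212565236 (plus strand) and chr7:97872456-97872488 (minus strand), in that order.
CHAC1: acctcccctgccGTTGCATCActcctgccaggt
ATF3: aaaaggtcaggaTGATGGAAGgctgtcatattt
ASNS: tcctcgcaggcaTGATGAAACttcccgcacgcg
Promoters were found for 17 of the 18 tested genes of the stress list, and 2 of them, CHAC1 and ATF3, held a match (11.8%). Among all 27305 RefSeq promoters of the same length 3.67% did. A match is a description of letters and not a measured binding site.

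**Figure D2:**
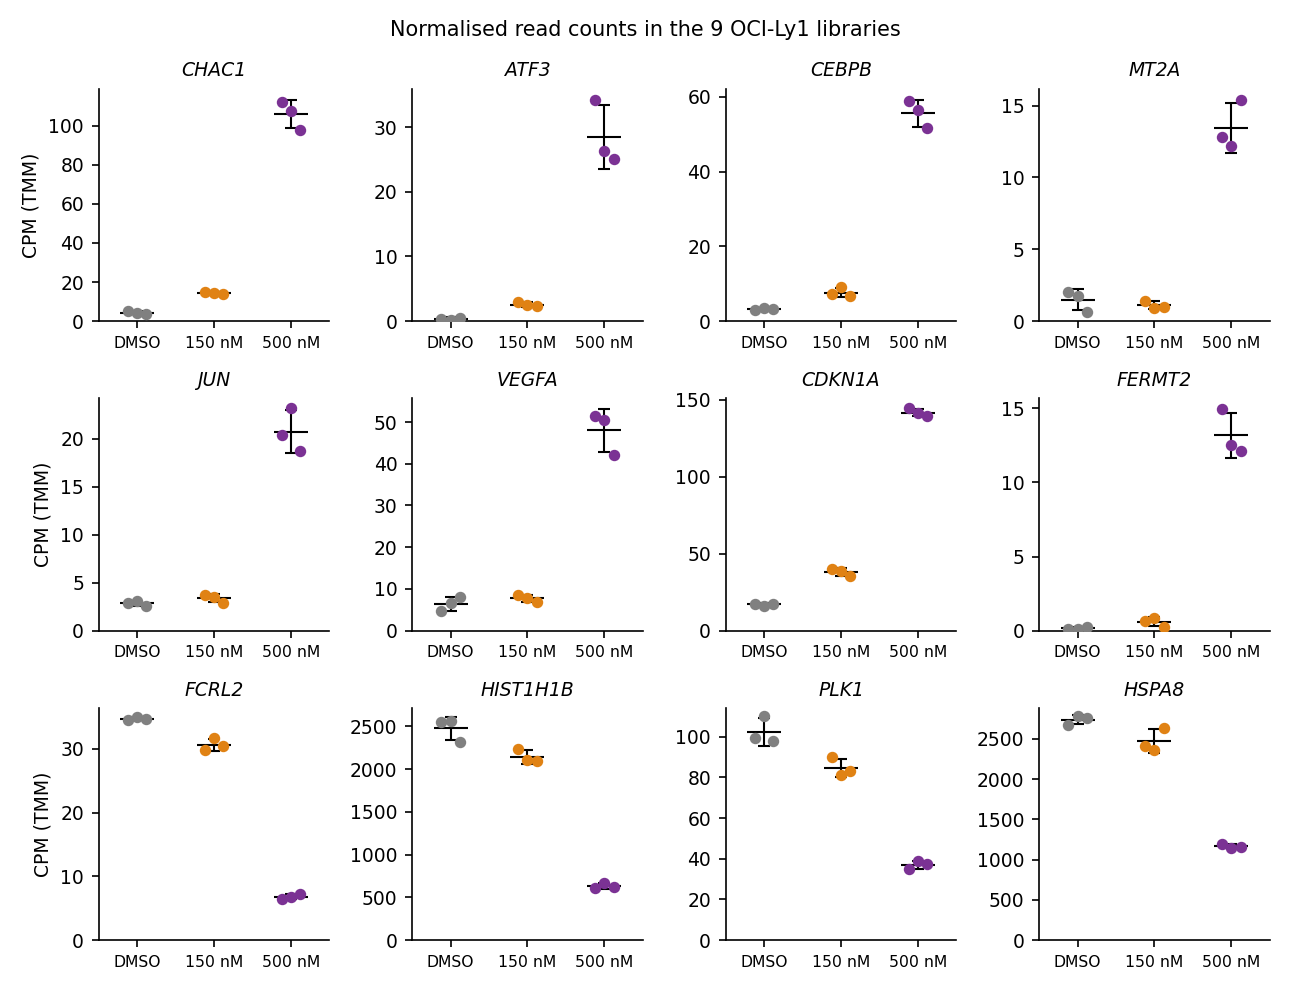
Normalised read counts (vertical axes, TMM-scaled CPM, starting at 0) of 12 genes in the 3 OCI-Ly1 libraries with DMSO, 150 nM and 500 nM JIB-04; points are libraries, the horizontal bar is the mean and the error bar the SD. In each panel the 3 libraries at 500 nM stand apart from the 3 at 150 nM: higher for CHAC1, ATF3, CEBPB, MT2A, JUN, VEGFA, CDKN1A and FERMT2, lower for FCRL2, HIST1H1B, PLK1 and HSPA8.

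Genes for making, importing and charging amino acids followed, to differing degrees. Of 16 enzymes of serine, asparagine and one-carbon synthesis, 13 were called higher and 2 lower, with a median log2 fold change of 0.89. CTH, which makes cysteine from cystathionine, measured 9.596, 10.6 and 10.5 CPM with DMSO, 18.8, 20.4 and 20.8 CPM at 150 nM and 93.3, 83.1 and 81.97 CPM at 500 nM. The doses did not overlap (log2 fold change 2.11 with SE 0.074, edgeR adjusted p = 4.4e-13). PSAT1 and PYCR1, enzymes of serine and proline synthesis, rose by 1.59 and 1.42. ASNS, asparagine synthetase, rose by 0.88 and PHGDH, the first enzyme of serine synthesis, by 0.92. The 2 enzymes that fell were MTHFD1 (-0.27), of cytosolic folate metabolism, and ALDH18A1 (-0.52), of proline synthesis. SHMT1 did not pass the test.

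Among the amino-acid transporters 10 of 16 tested genes were higher (62.5%, against 25.1% of all genes) and 4 lower (25%, near the 21.1% of all genes). SLC6A9, a glycine transporter, measured 2.66, 3.23 and 1.94 CPM with DMSO, 8.96, 8.58 and 6.38 CPM at 150 nM and 43.9, 45.2 and 41.8 CPM at 500 nM, and SLC43A1, which carries large neutral amino acids, measured 12.6, 15.6 and 12.8 CPM with DMSO, 26.2, 24.6 and 25.1 CPM at 150 nM and 115, 118 and 106 CPM at 500 nM. Neither overlapped between doses, and they rose by 2.44 (SE 0.12, edgeR adjusted p = 1.7e-11) and 2.16 (SE 0.075, edgeR adjusted p = 3.7e-13). The glutamine carrier SLC1A5 rose by 1.29 and the cystine carrier SLC7A11 with its partner SLC3A2 by 1.22 and 1.09. The transporters that fell were SLC7A6, SLC43A2, SLC36A1 and SLC38A5, by between 0.14 and 0.38. With library size alone and on both uncentred TPM scales 0 of the 16 were called lower.

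The cytosolic tRNA synthetases split, with 11 of 20 higher (55%, against 25.1% of all genes) and 7 lower (35%, against 21.1%). WARS, for tryptophan, measured 75.3, 71.2 and 76.5 CPM with DMSO, 103, 102 and 96.6 CPM at 150 nM and 367, 349 and 325 CPM at 500 nM, and its libraries did not overlap (log2 fold change 1.79 with SE 0.057, edgeR adjusted p = 1.8e-13). CARS and TARS, for cysteine and threonine, rose by 1.10 and 0.91. RARS, FARSB and QARS, for arginine, phenylalanine and glutamine, fell, with log2 fold changes of -0.61, -0.51 and -0.38. The summed level of the 20 genes was still higher, moving from 5934, 5888 and 6082 at 150 nM to 7966, 7584 and 7459 at 500 nM, in CPM.

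In the list of the unfolded protein response of the endoplasmic reticulum 11 of 24 genes were higher and 9 lower. These are 45.8% and 37.5%, against 25.1% and 21.1% of all genes. Those that rose included ERN1, the sensor IRE1, which measured 4.63 ± 0.424 CPM at 150 nM and 28.9 ± 2.55 CPM at 500 nM (SD, n = 3) and had a log2 fold change of 2.64. XBP1, the factor whose mRNA IRE1 splices, rose by 1.48, and the degradation adaptors SEL1L and HERPUD1 by 1.14 and 0.97. The chaperones of the lumen went the other way: HSPA5 (BiP), HSP90B1 and CALR had log2 fold changes of -0.63, -0.62 and -0.79, and MANF of -0.84. The list's median was 0.15, and -0.05 on the centred scale.

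Most heat-shock genes, largely cytosolic chaperones, fell. Of 22 heat-shock genes tested 15 were lower and 3 higher, with a median of -0.36, and their summed level moved from 10268, 9968 and 10689.8 at 150 nM to 6443, 6218 and 6229 at 500 nM, in CPM. HSPA8, the constitutive HSP70 chaperone, had 2673, 2786 and 2766 CPM with DMSO, 2415, 2363 and 2642 CPM at 150 nM and 1192, 1140.3 and 1163 CPM at 500 nM. The 500 nM libraries lay below all others (log2 fold change -1.09 with SE 0.043, edgeR adjusted p = 1.4e-12). HSP90AB1 and HSP90AA1, the HSP90 proteins, fell by 0.88 and 0.86 on the log2 scale. The 3 that rose were HSPA6, DNAJB4 and HSF1, of which HSPA6 stayed at 1.59 ± 0.439 CPM (SD, n = 3) at 500 nM. HSPA1A and HSPA1B are near-identical copies between which reads can be split. They measured 3.27 ± 0.539 CPM at 150 nM and 3.23 ± 0.938 CPM at 500 nM (SD, n = 3) and 115 ± 6.38 CPM at 150 nM and 123 ± 6.45 CPM at 500 nM (SD, n = 3), with edgeR adjusted p = 0.99 and 0.19.

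Metallothionein genes rose from a low level. Of 8 tested genes of zinc binding and transport 6 were higher and 1 lower, with a median of 3.07. MT2A measured 2.02, 1.76 and 0.646 CPM with DMSO, 1.41, 0.908 and 1.01 CPM at 150 nM and 12.8, 12.2 and 15.4 CPM at 500 nM, and MT1X 2.06, 1.88 and 2.22 CPM with DMSO, 2.26, 2.44 and 2.07 CPM at 150 nM and 15.7, 10.6 and 12.3 CPM at 500 nM. Both rose without overlap, by 3.58 (SE 0.25, edgeR adjusted p = 3.0e-09) and 2.51 (SE 0.16, edgeR adjusted p = 1.1e-09). SLC30A1, the zinc exporter of the plasma membrane, measured 2.66, 2.23 and 1.45 CPM with DMSO, 2.62, 2.600 and 2.55 CPM at 150 nM and 15.2, 16.8 and 15.02 CPM at 500 nM (log2 fold change 2.59 with SE 0.16, edgeR adjusted p = 4.4e-10). MT1G had 0 counts in each 150 nM library and 46, 23 and 45 counts at 500 nM, which against a floor of 3 counts per library is at least 9.24-fold higher. MT1E, with at most 2 counts at 150 nM, was at least 10.5-fold higher. MT1F completed the 6. The zinc importer SLC39A10 fell, with a log2 fold change of -0.76, and MTF1, the zinc sensor, did not pass the test (-0.10). Metallothionein genes resemble one another closely, so the share of each is uncertain.

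The metal response element is the known binding sequence of MTF1, and upstream windows of 3 of the genes that rose are shown for it. This motif was added after the values had been seen. Matches to TGCACNC or TGCGCNC on either strand are in capitals. The windows are chr16:56608334-56608583 (plus strand), chr16:56682308-56682435 (plus strand) and chr1:211579192-211579222 (minus strand) of GRCh38.p14, from RefSeq.
MT2A: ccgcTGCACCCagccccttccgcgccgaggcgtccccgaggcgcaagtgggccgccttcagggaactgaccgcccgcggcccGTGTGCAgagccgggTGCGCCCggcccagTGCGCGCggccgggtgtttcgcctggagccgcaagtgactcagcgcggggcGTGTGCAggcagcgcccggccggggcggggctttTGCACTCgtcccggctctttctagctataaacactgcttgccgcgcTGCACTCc
MT1X: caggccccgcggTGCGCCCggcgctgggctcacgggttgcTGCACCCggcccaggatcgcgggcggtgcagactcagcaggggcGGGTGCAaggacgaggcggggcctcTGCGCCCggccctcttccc
SLC30A1: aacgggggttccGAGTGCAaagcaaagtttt
The windows held 7, 4 and 1 matches. So short a motif is common: 29.3% of all 27305 RefSeq promoters held it. Promoters were found for 5 of the 8 tested genes of the list (62.5%), too few for a share over the list.

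Immediate-early genes and genes of the NF-kB pathway were also higher. Of 22 AP-1, EGR and other immediate-early genes 14 rose and 1, the phosphatase gene DUSP2, fell; the median was 1.30. JUN, a subunit of the transcription factor AP-1, had 2.85, 3.11 and 2.58 CPM with DMSO, 3.75, 3.51 and 2.93 CPM at 150 nM and 20.4, 23.2 and 18.7 CPM at 500 nM and did not overlap between the doses (log2 fold change 2.60 with SE 0.13, edgeR adjusted p = 2.6e-11). JUND and JUNB rose by 1.60 and 1.20. FOS, FOSB and EGR1 had larger fitted changes, of 3.30, 3.15 and 2.20, at low levels of 2.92 ± 0.342, 1.58 ± 0.399 and 2.302 ± 0.407 CPM at 500 nM (SD, n = 3).

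In the NF-kB list 16 of 22 tested genes were higher and 2 lower, with a median of 0.59. ICAM1, an adhesion molecule, measured 1.67, 1.23 and 1.53 CPM with DMSO, 2.78, 2.89 and 2.45 CPM at 150 nM and 18.5, 18.3 and 18.3 CPM at 500 nM, and its libraries did not overlap (log2 fold change 2.76 with SE 0.13, edgeR adjusted p = 1.0e-11). CCR7, a chemokine receptor, and LTA, lymphotoxin alpha, rose by 2.19 and 2.03. The feedback inhibitors NFKBIA and TNFAIP3 rose by 1.21 and 1.43, and the subunits of the non-canonical arm NFKB2 and RELB by 0.86 and 0.71. REL, the c-Rel subunit, fell from 108 ± 1.48 to 60.5 ± 1.93 CPM (SD, n = 3; log2 fold change -0.83), and the chemokine gene CCL22 fell as well (-0.40).

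Hypoxia-inducible genes and glycolytic enzymes shared no direction, with 9 of 31 higher and 12 lower. These are 29% higher, near the 25.1% of all genes, and 38.7% lower, against 21.1%. VEGFA, the vascular endothelial growth factor, measured 4.64, 6.75 and 7.99 CPM with DMSO, 8.52, 7.88 and 6.81 CPM at 150 nM and 51.5, 50.5 and 41.99 CPM at 500 nM, without overlap (log2 fold change 2.62 with SE 0.13, edgeR adjusted p = 3.9e-11). LDHA, lactate dehydrogenase A, fell from 757 ± 25.8 to 442 ± 12.5 CPM (SD, n = 3; log2 fold change -0.77), and the glycolytic enzymes ALDOA, PGAM1, PGK1, GAPDH and TPI1 fell by between 0.35 and 0.42. The list's median was 0.020 and changed sign on the centred scale (-0.10), without a low-count filter and with only the 6 libraries of the contrast (both -0.01), and without replicate 2 (-0.02) or replicate 3 (-0.01) at 150 nM. NDRG1, another hypoxia-inducible gene, rose by 3.45 at a level of only 1.49 ± 0.169 CPM at 500 nM (SD, n = 3).

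In the list of p53 targets 14 of 26 were higher (53.8%, against 25.1% of all genes) and 3 lower (11.5%, against 21.1%). The median was 0.26. GADD45B, a growth-arrest gene placed in this list, measured 3.74 ± 0.567 CPM at 150 nM and 18.6 ± 2.04 CPM at 500 nM (SD, n = 3) (log2 fold change 2.31). The death receptor gene FAS and the BH3-only gene BBC3 (PUMA) rose by 1.92 and 1.66, and TNFRSF10B, a TRAIL receptor, by 0.90. MDM2, the ubiquitin ligase of p53, did not pass the test, at 542 ± 44.5 CPM at 150 nM and 563 ± 17.2 CPM at 500 nM (SD, n = 3). The genes that fell were RRM2B, TNFRSF10A and BTG2. CDKN1A, the CDK inhibitor p21, was kept in the list of G1 regulators. It measured 17.6, 16.2 and 17.4 CPM with DMSO, 40.1, 38.9 and 35.3 CPM at 150 nM and 144, 141 and 139 CPM at 500 nM, with no overlap (log2 fold change 1.89 with SE 0.062, edgeR adjusted p = 1.9e-13).

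In the BCL2 family 8 of 16 tested genes rose (50%, against 25.1% of all genes) and 2, BIK and BCL2L12, fell (12.5%, against 21.1%). The genes that rose included the pro-apoptotic members BAD, HRK, BMF and BCL2L11 (BIM), by 0.70, 0.68, 0.55 and 0.39, and the anti-apoptotic member BCL2L1, by 0.27. BCL2 and MCL1 did not pass the test, with log2 fold changes of 0.016 and 0.018.

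**Figure D3:**
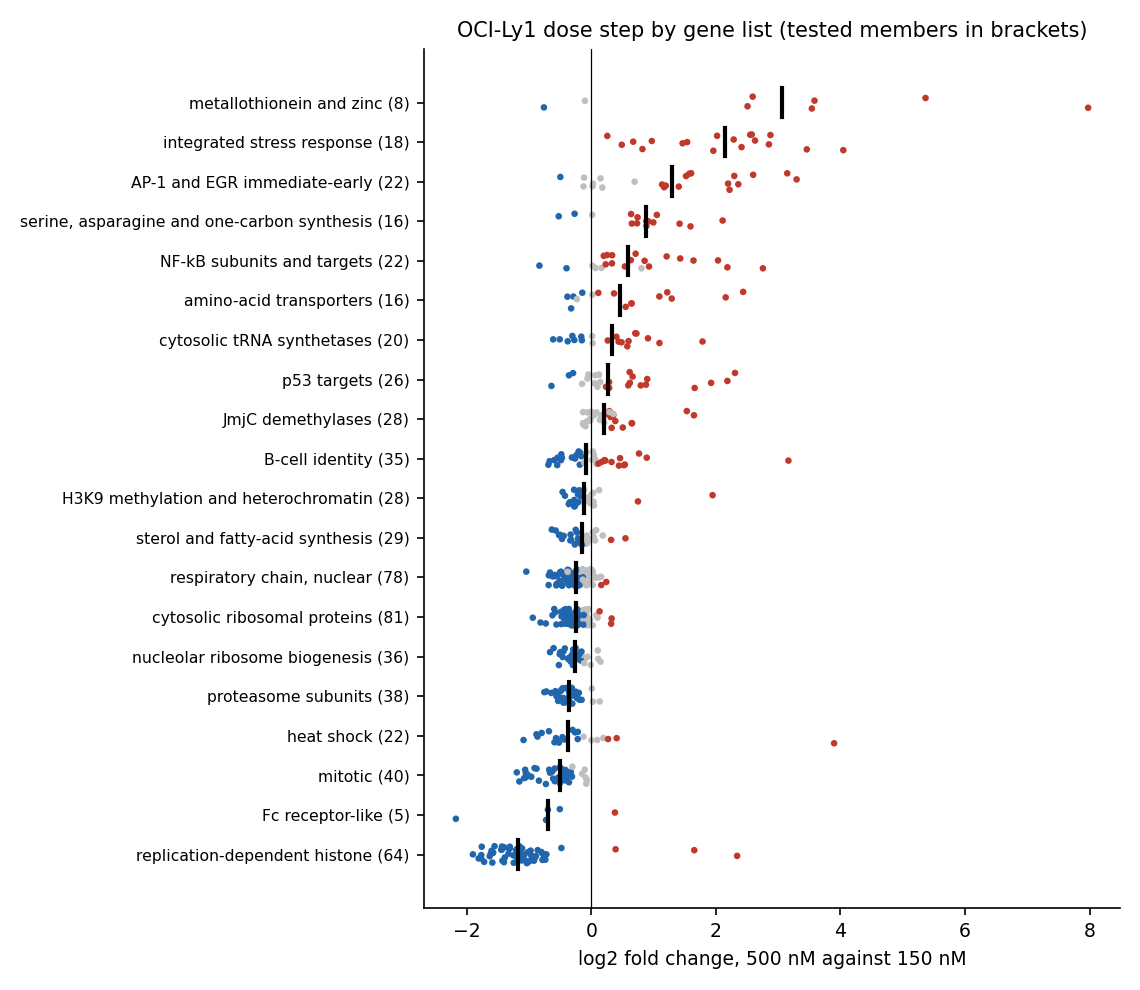
Log2 fold change of 500 nM against 150 nM (horizontal axis) of the tested members of 20 gene lists (rows; tested members in brackets). Red points were called higher, blue points lower and grey points neither, and the black bar is the list's median; all 18 tested stress-response genes lie to the right of 0 and 61 of 64 histone genes to the left.

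Replication-dependent histone genes fell as a class. Of 64 tested, 61 were lower and 3 higher, against 21.1% lower among all genes, with a median of -1.18. Together they took 2.74% to 2.97% of a library's counts at 150 nM and 1.23% to 1.31% at 500 nM, against 2.96% to 3.31% with DMSO. HIST1H1B, a linker histone and the most abundant gene to fall by this much, had 2556, 2557 and 2319 CPM with DMSO, 2234, 2103 and 2090.1 CPM at 150 nM and 606, 669.7 and 627 CPM at 500 nM. The 500 nM libraries lay far below both other groups (log2 fold change -1.76 with SE 0.050, edgeR adjusted p = 4.0e-14). HIST1H4I and HIST1H2BM, core histones, fell by 1.90 and 1.81 on the log2 scale. HIST2H4A and HIST2H4B carried identical values, as near-identical copies can, and count as 1 measurement (log2 fold change -1.76). The exceptions were HIST1H1T, HIST1H2BE and HIST2H2BC, at 0.846 ± 0.127, 0.644 ± 0.294 and 15.4 ± 1.62 CPM at 500 nM (SD, n = 3).

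Mitotic genes fell to a smaller extent. Of 40 tested, 34 were lower and 0 higher (edgeR adjusted p under 0.05), with a median of -0.51, and at least 33 were lower under every alternative that kept all libraries of the contrast. PLK1, a mitotic kinase, measured 99.2, 110.4 and 97.8 CPM with DMSO, 89.8, 81.3 and 83.2 CPM at 150 nM and 35.01, 38.7 and 37.6 CPM at 500 nM. CCNB1, the cyclin of mitotic entry, measured 299, 287 and 296 CPM with DMSO, 276, 267 and 273 CPM at 150 nM and 119, 121 and 126 CPM at 500 nM. Neither overlapped between the doses, and the log2 fold changes were -1.19 (SE 0.067, edgeR adjusted p = 1.2e-10) and -1.15 (SE 0.048, edgeR adjusted p = 2.0e-12). HMMR, a spindle protein, and CDC20, an activator of the anaphase-promoting complex, had log2 fold changes of -1.08 and -0.96, and TOP2A, topoisomerase II alpha, of -0.66. The 6 mitotic genes that did not pass were BUB3, CDC25C, KIF2C, NEK2, CDC25B and FAM64A.

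The cell-cycle homology region (CHR) is the known promoter sequence through which the DREAM and MuvB complexes act on mitotic genes. It is shown for 3 of those that fell and held a match. CCNB1 was searched too and held none. Matches to TTTGAA on either strand are in capitals. The upstream windows are chr16:23678848-23678877 (plus strand), chr5:163460592-163460627 (plus strand) and chr1:43358791-43358933 (plus strand) of GRCh38.p14, from RefSeq.
PLK1: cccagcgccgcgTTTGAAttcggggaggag
HMMR: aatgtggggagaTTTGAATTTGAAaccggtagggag
CDC20: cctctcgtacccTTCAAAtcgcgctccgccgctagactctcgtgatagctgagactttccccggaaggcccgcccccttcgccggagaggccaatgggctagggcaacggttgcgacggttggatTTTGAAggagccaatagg
PLK1 held 1 match in its window, and HMMR and CDC20 held 2 each, those of HMMR side by side. Of the 40 tested mitotic genes 33 had a promoter (82.5%), and 23 of these, 69.7%, held TTTGAA, against 15.4% of all 27305 RefSeq promoters. CCAAT was found in 26 (78.8%), against 35.7% of all. Of the 64 histone genes 53 had a promoter, and 45 of these, 84.9%, held CCAAT.

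DNA replication genes did not follow the histones and mitotic genes. Of 41 tested, 13 were higher (31.7%, against 25.1% of all genes) and 9 lower (22%, against 21.1%), with a median of 0.040. The direction rested on the scaling: the number called higher ran from 2 to 19 over the alternatives that kept all libraries, and the median was -0.06 on the centred scale. RFC3, a clamp loader subunit, and RRM1, of ribonucleotide reductase, fell by 0.60 and 0.38 on the log2 scale. PCNA, the sliding clamp, measured 591 ± 27.8 CPM at 150 nM and 580.4 ± 26.4 CPM at 500 nM (SD, n = 3) and did not pass the test. Among G1 regulators 9 of 26 were higher (34.6%) and 8 lower (30.8%). The transcription factor E2F5 was lower (-0.64) and CDKN2B, the CDK inhibitor p15, higher (1.01).

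**Figure D4:**
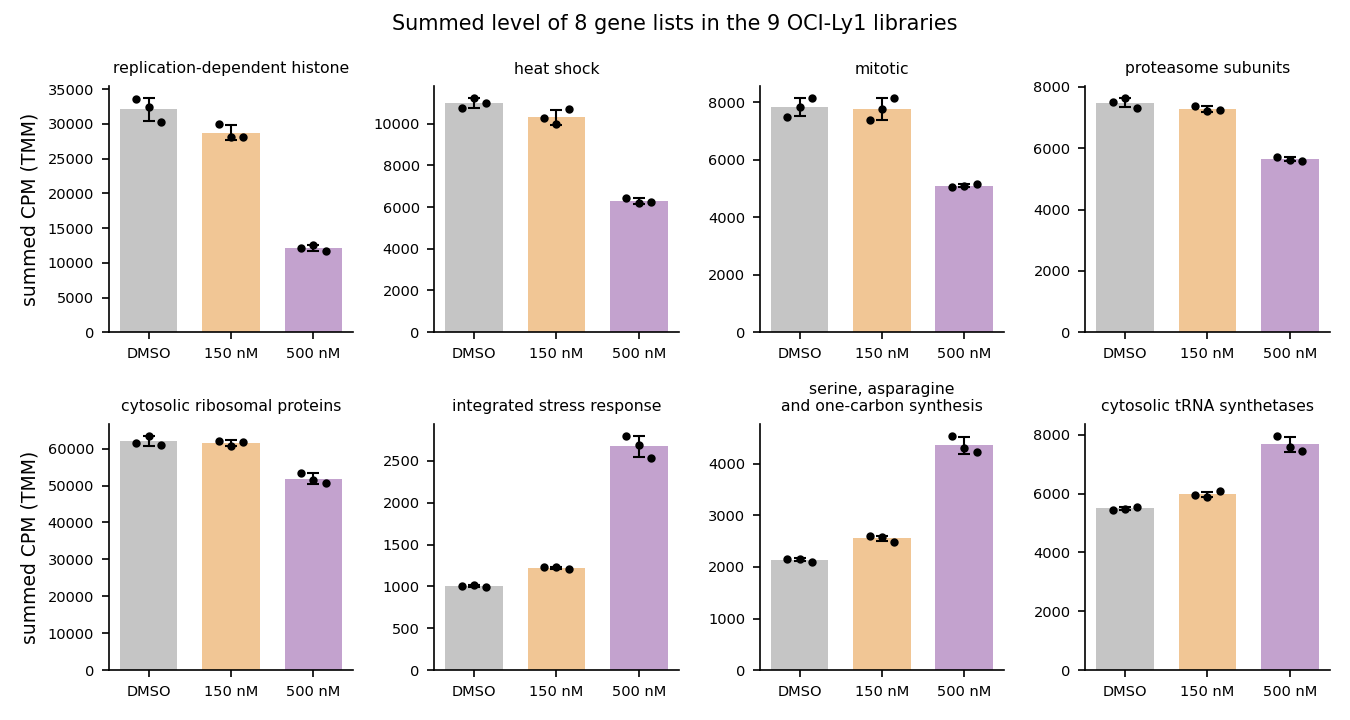
Summed level of 8 gene lists (vertical axes, TMM-scaled CPM, starting at 0) in the 9 OCI-Ly1 libraries; bars are means of 3 libraries, error bars the SD and points the libraries. The summed level at 500 nM lies below that at 150 nM for histone, heat-shock, mitotic, proteasome and ribosomal protein genes and above it for the stress-response, amino-acid synthesis and tRNA synthetase genes, with no overlap between the doses.

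Genes of the translation and protein turnover machinery fell, most by less than 1. Among cytosolic ribosomal proteins 62 of 81 tested genes were lower and 3, RPS27L, RPL39L and RPS19, were higher, with a median of -0.25. The number called lower was 35 to 64 over the alternatives that kept all libraries. RPS16 and RPL3 fell by 0.94 and 0.73 on the log2 scale, and RPL21, which has many processed copies, by 0.81. Their summed level moved from 62134, 60618 and 61853 at 150 nM to 53504, 51395 and 50804 at 500 nM, in CPM. In nucleolar ribosome biogenesis 28 of 36 genes were lower and 0 higher, with 13 to 31 lower over the same alternatives. NPM1 and NCL, the abundant nucleolar proteins nucleophosmin and nucleolin, fell from 2001 ± 173 to 1265 ± 50.9 CPM and from 1781 ± 78.9 to 1172 ± 55.6 CPM (SD, n = 3), by 0.66 and 0.60.

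The proteasome was the most uniform of these groups. Of 38 subunit genes 35 were lower and 0 higher, with a median of -0.35, and 27 to 35 were lower over the alternatives that kept all libraries. PSMD1, a subunit of the regulatory particle, measured 407, 406 and 422 CPM with DMSO, 396, 388 and 409.9 CPM at 150 nM and 236, 235 and 237 CPM at 500 nM, without overlap (log2 fold change -0.75 with SE 0.044, edgeR adjusted p = 2.8e-10). PSMA3 of the core particle fell by 0.72. PSMD8, PSMD9 and PSMD10 did not pass the test. For the nuclear-encoded respiratory chain 48 of 78 genes were lower and 2, NDUFS4 and NDUFA13, higher, and for mitochondrial ribosomal proteins 37 of 76 were lower (22 to 51 over the alternatives) and 8 higher. ATP5A1, of the ATP synthase, fell from 955 ± 33.5 to 604 ± 9.202 CPM (SD, n = 3). Of single abundant genes, EEF1A1, the elongation factor of translation, and TUBA1B, an alpha-tubulin, were with HIST1H1B the 3 that lost the most CPM. EEF1A1 measured 9025 ± 267 CPM at 150 nM and 6439 ± 249 CPM at 500 nM (SD, n = 3) and TUBA1B 3573 ± 102 CPM at 150 nM and 2171 ± 68.6 CPM at 500 nM (SD, n = 3). Both genes have close copies that can share reads.

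Of 28 tested genes of the JmjC family, which the drug targets, 12 were higher (42.9%, against 25.1% of all genes) and 0 lower (against 21.1%), with a median of 0.20. Over the alternatives that kept all libraries 9 to 17 were higher and 0 to 3 lower. KDM4A had 82.4, 83.9 and 78.1 CPM with DMSO, 91.1, 84.2 and 78.2 CPM at 150 nM and 117, 109.6 and 105 CPM at 500 nM and rose (log2 fold change 0.39 with SE 0.064, edgeR adjusted p = 8.6e-05). KDM4C measured 79.1 ± 3.44 CPM at 150 nM and 96.7 ± 6.003 CPM at 500 nM (SD, n = 3) and rose by 0.29 (edgeR adjusted p = 6.0e-04), and on the centred TPM scale it missed the threshold (limma adjusted p = 0.054). KDM4B measured 31.4 ± 5.29 CPM at 150 nM and 36.4 ± 1.53 CPM at 500 nM (SD, n = 3) and did not pass (log2 fold change 0.21 with SE 0.091, edgeR adjusted p = 0.07), though it did with library size alone, on both uncentred TPM scales and without replicate 1 at 150 nM (log2 fold change 0.33, edgeR adjusted p = 0.0021). KDM6B, a demethylase of H3 lysine 27 known as JMJD3, rose most, from 9.61, 9.37 and 8.03 to 28.96, 28.96 and 27.2 CPM in the 3 libraries each (log2 fold change 1.65 with SE 0.093, edgeR adjusted p = 1.5e-10). PHF2 and KDM4D rose by 0.65 and 0.66, and KDM5B, a demethylase of H3 lysine 4, by 1.53 from a low level of 1.31 ± 0.495 CPM (SD, n = 3).

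Writers and readers of H3 lysine 9 methylation and other heterochromatin proteins were lower in 13 of 28 genes and higher in 2, with a median of -0.12. These are 46.4% lower, against 21.1% of all genes, and 7.14% higher, against 25.1%. Over the alternatives that kept all libraries 7 to 16 were lower. LBR, the lamin B receptor, measured 309 ± 22.7 CPM at 150 nM and 225 ± 5.29 CPM at 500 nM (SD, n = 3), and CBX3, the heterochromatin protein HP1 gamma, 646 ± 46.2 CPM at 150 nM and 482 ± 26.5 CPM at 500 nM (SD, n = 3). Their log2 fold changes were -0.46 and -0.42. The methyltransferase genes SUV39H1, SETDB1, EHMT1 and EHMT2 did not pass the test, while SUV39H2 fell (-0.27). The 2 that rose were DNMT3A, a DNA methyltransferase, by 0.75, and LMNA, lamin A/C, by 1.95 from 0.476 ± 0.06005 to 1.84 ± 0.319 CPM (SD, n = 3). In the Polycomb list 11 of 27 genes were higher (40.7%) and 6 lower (22.2%, near the share of all genes). Its median of 0.12 was -0.05 on the centred scale. BMI1, of Polycomb complex PRC1, rose by 0.79. EED, a core subunit of PRC2, fell from 61.02 ± 3.399 to 41.7 ± 0.468 CPM (SD, n = 3). Its enzyme EZH2 did not pass (-0.12).

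B-cell genes went both ways. Of 35 tested 12 were higher (34.3%, against 25.1% of all genes) and 15 lower (42.9%, against 21.1%). The median of -0.080 was 0.03 on the uncentred TPM scales. IRF4, a transcription factor of activated B cells and plasma cells, had 244, 229.6 and 217 CPM with DMSO, 233, 232 and 248 CPM at 150 nM and 455, 446 and 422 CPM at 500 nM and rose without overlap (log2 fold change 0.89 with SE 0.053, edgeR adjusted p = 3.4e-10). MEF2B, a germinal-centre factor, rose by 0.77. IKZF1, the factor Ikaros, had 420.1, 413 and 409 CPM with DMSO, 376, 384 and 398 CPM at 150 nM and 226, 254 and 239 CPM at 500 nM and fell without overlap (log2 fold change -0.69 with SE 0.050, edgeR adjusted p = 4.3e-09). MS4A1 (CD20) and BTK fell by 0.49 and 0.54 on the log2 scale, whereas BCL6 did not pass the test (0.064).

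FCRL2, an Fc receptor-like protein of B cells, had the largest fall of any gene that met the conditions for a named gene (a mean of 5 CPM or more at one of the doses, over 3 counts in each of the 6 libraries, no overlap). It measured 34.5, 34.98 and 34.7 CPM with DMSO, 29.7, 31.7 and 30.4 CPM at 150 nM and 6.44, 6.699 and 7.25 CPM at 500 nM, a log2 fold change of -2.17 (SE 0.080, edgeR adjusted p = 7.4e-13). FCRL3, FCRLB and FCRL1 fell too, by 0.72, 0.70 and 0.50, while FCRL5 rose by 0.38, so 4 of the 5 tested members fell.

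In MHC class II presentation 3 of 11 tested genes rose and 3 fell (27.3% each), near the 25.1% and 21.1% of all genes. HLA-DMA, a peptide-loading chaperone, fell from 10.00 ± 0.164 to 4.15 ± 0.476 CPM (SD, n = 3, log2 fold change -1.27). CIITA, the class II transactivator, rose by 0.37. HLA-DRA, a class II chain, rose by 2.78 but reached only 1.16 ± 0.387 CPM (SD, n = 3). HLA-DMB fell (-0.44), but did not pass without replicate 1 at 150 nM or replicate 3 at 500 nM (edgeR adjusted p = 0.055 and 0.088). In class I, 5 of 14 rose (35.7%) and 3 fell (21.4%), and the 3 that fell were immunoproteasome subunits (PSMB8, PSMB9 and PSMB10). Of 31 interferon-stimulated genes 9 were higher and 8 lower, shares near the 25.1% and 21.1% of all genes (6 to 16 lower over the alternatives that kept all libraries). IRF7 and IRF1, interferon regulatory factors, rose by 1.57 and 0.91, while the antiviral genes OAS3 and XAF1 fell, with log2 fold changes of -0.74 and -0.52.

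Metabolic and transcriptional lists gave smaller shifts. In sterol and fatty-acid synthesis 15 of 29 genes were lower (8 to 16 over the alternatives that kept all libraries) and 2 higher. These are 51.7% lower, against 21.1% of all genes, and 6.9% higher, against 25.1%. HMGCS1, an enzyme of the mevalonate pathway, fell by 0.57 on the log2 scale, and the 2 that rose were the regulators SREBF1 (0.55) and SREBF2 (0.32). Among NRF2 targets 4 of 20 were higher (20%, against 25.1% of all genes) and 8 lower (40%, against 21.1%). Ferritin heavy chain FTH1 was up by 0.71 and PRDX1, a peroxiredoxin, was at -0.67. Iron genes were higher in 2 of 13, ISCU and TFRC (15.4%), and lower in 5 (38.5%). CYP1A1, the classic target of the aryl hydrocarbon receptor, had 44.5, 36.8 and 35.6 CPM with DMSO, 28.3, 24.1 and 26.9 CPM at 150 nM and 8.700, 8.02 and 8.99 CPM at 500 nM and fell without overlap (log2 fold change -1.62 with SE 0.10, edgeR adjusted p = 5.2e-10), the 1 gene of 6 in its list to fall. The 3 called higher there, AHRR, AHR and TIPARP, each moved by 0.31 or less, and 0 to 3 of the list were called higher over the alternatives. AHRR did not pass without replicate 3 at 150 nM, replicate 1 at 500 nM or replicate 2 at 500 nM (edgeR adjusted p = 0.10, 0.051 and 0.060), nor TIPARP without replicate 1 at 500 nM (0.055). The medians of the NRF2, iron and aryl hydrocarbon receptor lists changed sign between scalings.

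MYC rose from 299 ± 5.26 to 399 ± 9.38 CPM (SD, n = 3), a log2 fold change of 0.42. It was 1 of 5 genes higher among 11 of its network (45.5%, against 25.1% of all genes), and its antagonist MXD1 rose by 0.88. Of 14 genes of P-TEFb, which releases paused RNA polymerase, and of the BET readers 9 were higher (64.3%) and 1, LARP7, lower (7.14%). HEXIM1, an inhibitor of P-TEFb, was up by 0.31, and 5 to 10 of the 14 were higher over the alternatives. Zinc-finger (ZNF) genes were called in 118 of 464 cases upward and 56 downward, near the 25.1% and below the 21.1% of all genes, and the numbers ran from 59 to 167 and from 19 to 110 over the alternatives. Antisense RNAs were lower in 50 (34 to 107) and higher in 32 (21 to 44) of 275, and LINC RNAs lower in 34 (24 to 61) and higher in 13 (9 to 19) of 143. For antisense RNAs these are 18.2% lower and 11.6% higher, both below the shares of all genes. For LINC RNAs they are 23.8% lower, near the 21.1% of all genes, and 9.09% higher, below the 25.1%. The counting is not stated to use strand, so antisense RNAs cannot be told from the genes they overlap. Of 14 snoRNA host genes 5 rose (35.7%, against 25.1% of all genes) and 4 fell (28.6%, against 21.1%), with GAS5 up by 0.73 and SNHG4 at -0.96. On the centred scale the medians of the G1, MHC class I, MYC, ZNF and snoRNA host lists turned negative. Markers of myeloid cells and of stromal or epithelial cells were called higher in 0 cases and lower in 1 of 3 and 3 of 6 tested genes, all at or below 11.5 CPM.

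Among called genes that met those same conditions for a named gene, the 10 with the largest rises came from no single list; genes at lower levels had larger fitted rises. FERMT2, the integrin activator kindlin-2, had 0.119, 0.117 and 0.242 CPM with DMSO, 0.686, 0.867 and 0.266 CPM at 150 nM and 14.9, 12.5 and 12.1 CPM at 500 nM. It was barely counted below 500 nM and rose by 4.38 on the log2 scale (SE 0.23, edgeR adjusted p = 5.3e-11). P2RX1, an ATP-gated channel, and IER5L, an immediate-early response gene, rose by 4.14 and 4.26 to 11.5 ± 1.28 and 5.47 ± 1.21 CPM (SD, n = 3). ESRP1, a splicing regulator of epithelial cells, measured 0.278, 0.176 and 0 CPM with DMSO, 3.75, 4.09 and 3.09 CPM at 150 nM and 51.3, 46.6 and 44.95 CPM at 500 nM, so that each dose stood clear of the one below it, with a log2 fold change of 3.70 between the doses. FAM129A, a gene also known as NIBAN1 and linked to the stress response, rose from 2.31 ± 0.448 to 29.9 ± 3.78 CPM (SD, n = 3). The others of the 10 largest were MT2A and ATF3, described above, TUBB2B, a beta-tubulin, HMCN1, hemicentin-1, and FAM43A, with log2 fold changes of 3.56, 3.44 and 3.35.

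In absolute terms 3 non-coding or receptor transcripts gained most. RPPH1, the RNA of ribonuclease P, measured 9969 ± 1014 CPM at 150 nM and 13676 ± 903 CPM at 500 nM (SD, n = 3), LOC284801, an uncharacterised transcript, 377 ± 78.8 CPM at 150 nM and 1928 ± 271 CPM at 500 nM (SD, n = 3), and S1PR3, a sphingosine-1-phosphate receptor, 1290.4 ± 92.5 CPM at 150 nM and 1992 ± 202 CPM at 500 nM (SD, n = 3). Their log2 fold changes were 0.46, 2.35 and 0.63; that of RPPH1 did not pass on any of the 3 TPM scales (limma adjusted p from 0.055 to 0.28).

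Under the same conditions the largest falls after FCRL2 were those of CAMP, the antimicrobial peptide cathelicidin, at -2.11, then of histone genes, PNMAL1, PRX and LGALS14. CAMP measured 11.4, 12.1 and 10.5 CPM with DMSO, 7.75, 9.45 and 7.66 CPM at 150 nM and 1.698, 2.21 and 1.91 CPM at 500 nM, without overlap (SE 0.15, edgeR adjusted p = 3.6e-09). PRX, periaxin, fell from 72.2 ± 6.28 to 21.2 ± 1.51 CPM, PNMAL1 from 5.48 ± 0.171 to 1.54 ± 0.298 CPM and LGALS14, a galectin, from 6.64 ± 0.641 to 1.97 ± 0.272 CPM (SD, n = 3).

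A few genes were countable only at the higher dose. With at most 3 counts in each 150 nM library and at least 20 in each 500 nM library there were 9 genes, and 0 in the opposite direction. These thresholds are raw counts, not scaled for depth, and library totals were mostly larger at 500 nM. The part that depth had in these numbers was not tested. NPDC1, a neural proliferation gene, had 0, 2 and 1 counts at 150 nM and 69, 49 and 41 at 500 nM, at least 13.1-fold higher against a floor of 3 counts per library. FLNC, the actin cross-linker filamin C, had 0, 2 and 2 counts and then 57, 40 and 48, at least 11.9-fold. PCNA-AS1 had 0 counts in each 150 nM library and 237, 114 and 435 at 500 nM, but also 219, 0 and 0 with DMSO, and it lies antisense to PCNA, from which its reads may not be separable. The other 6, chosen here after their values were seen, were DACT1, MT1E, CSAG3, MT1G, LOC642423 and GPRC5B.

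The dose step of OCI-Ly1 was then set against that of TMD8, with which it shares no library. In a fit of all 18 libraries 16604 genes were tested for a difference between the 2 steps, and 23.8% were called (edgeR adjusted p under 0.05). The step was more positive in OCI-Ly1 for 2579 genes (15.5%) and more negative for 1374 (8.28%). On log2(TPM + 1) the numbers were 6456 and 484, so 93% of the called genes were more positive against 65.2% in the count model. Across genes the 2 steps had a Pearson correlation of 0.247 and a Spearman correlation of 0.301 over 16604 genes, which are not independent replicates.

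In 6 of the lists the step was more positive in OCI-Ly1 for most tested members. Over all genes 15.5% were more positive and 8.28% more negative. The counts by list are those of the count model, and on log2(TPM + 1) 93% of all called genes were more positive. For the integrated stress response, 16 of 18 genes had a more positive step in OCI-Ly1 and 0 a more negative one, with median log2 fold changes of 2.15 in OCI-Ly1 and 0.51 in TMD8. In the NF-kB list 16 of 22 were more positive and 2 more negative, with medians of 0.58 and 0.0085. The AP-1 and EGR list had 13 of 22 more positive and 0 more negative, serine, asparagine and one-carbon synthesis 12 of 16 and 0, and the tRNA synthetases 12 of 20 and 1. In the metallothionein and zinc list 5 of 8 were more positive and 0 more negative, with medians of 3.06 and 2.04. Among histone genes 30 of 64 were more negative in OCI-Ly1 and 2 more positive, although the medians were -1.18 and -0.91, lower at 500 nM in both lines. Among mitotic genes, whose medians were -0.51 and -0.62, 10 of 40 were more positive and 3 more negative, the latter near the share of all genes. Sterol genes had a median of -0.16 in OCI-Ly1 and 0.095 in TMD8, and 14 of 29 were more negative.

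**Figure D5:**
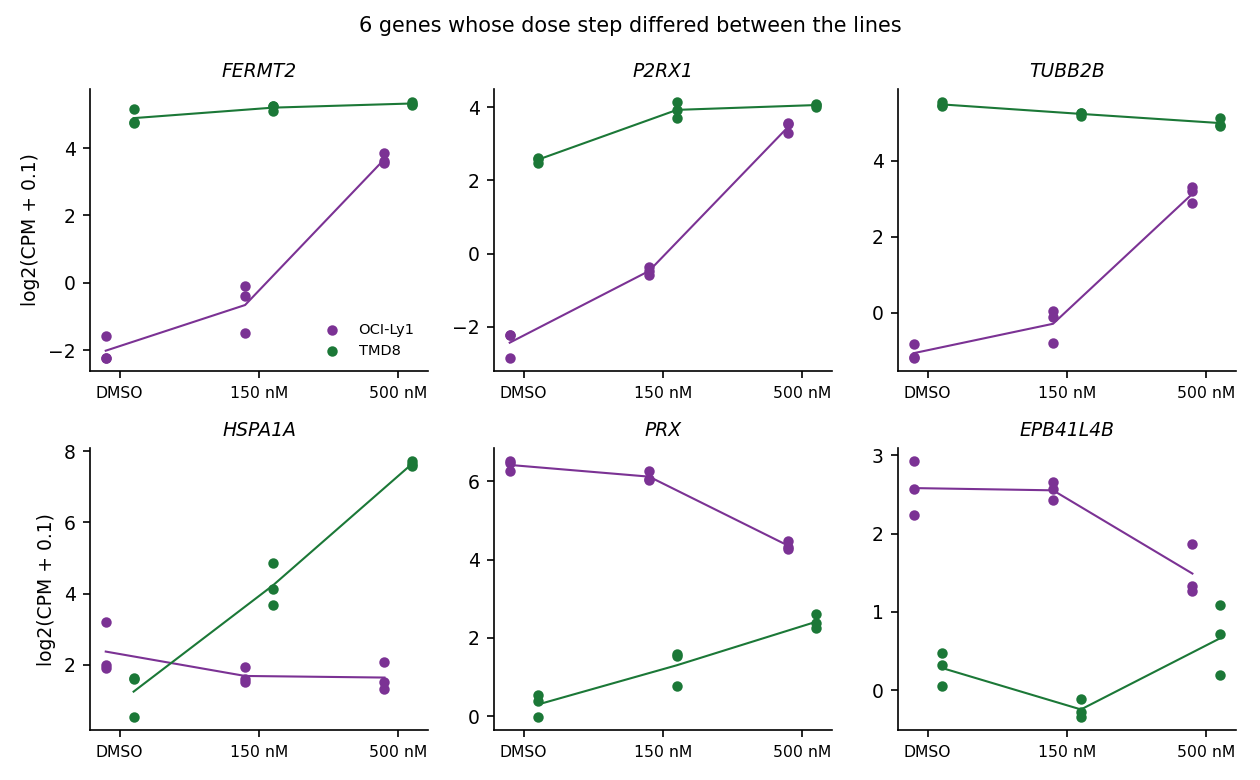
Level (vertical axes, log2(CPM + 0.1), TMM scaling over 18 libraries; axes do not start at 0) of the 6 genes named for the difference between lines, in OCI-Ly1 (purple) and TMD8 (green) at each treatment; points are libraries and lines join the means. From 150 nM to 500 nM FERMT2, P2RX1 and TUBB2B rise in OCI-Ly1 and change little in TMD8, while HSPA1A, PRX and EPB41L4B rise in TMD8 and not in OCI-Ly1.

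The 3 genes with the more positive step were already present in TMD8 at 150 nM. FERMT2 measured 37.5, 38.1 and 34.3 CPM at 150 nM and 39.8, 41.3 and 38.6 CPM at 500 nM in TMD8, against 0.665, 0.833 and 0.256 and 14.3, 12.04 and 11.7 CPM in OCI-Ly1 with the same scaling over 18 libraries. The difference of the steps was 4.24 on the log2 scale (SE 0.24, edgeR adjusted p = 4.1e-13). P2RX1 and TUBB2B differed by 4.01 and 3.79 in the same direction. HSPA1A, an inducible HSP70 gene, measured 12.8, 17.5 and 29.2 CPM at 150 nM and 199.7, 192 and 211 CPM at 500 nM in TMD8, and 2.94, 2.78 and 3.74 and 4.12, 2.79 and 2.41 CPM in OCI-Ly1. Its difference was -3.28 (SE 0.41, edgeR adjusted p = 1.0e-06). Reads can be split between HSPA1A and its near-identical copy HSPA1B, so the level and the difference of HSPA1A alone are uncertain. PRX fell in OCI-Ly1 and rose in TMD8, from 1.599, 2.903 and 2.82 to 5.95, 4.69 and 5.101 CPM there, a difference of -2.86 (SE 0.21, edgeR adjusted p = 1.0e-10). EPB41L4B, a gene of the cell cortex, differed by -2.13 (SE 0.38, edgeR adjusted p = 1.7e-04) at levels of at most 7.51 CPM in any library.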

How the data were processed

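Ribosomal RNA-depleted RNA of 2 cell lines was sequenced in 18 libraries, and the authors deposited estimated counts and TPM per gene. Per the submitters' processing notes, kallisto 0.46.0, R 4.3.1 and DESeq2 1.40.2 were used with build hg19. The deposited estimated counts were rounded to whole numbers and fitted with edgeR 4.0.16 (quasi-likelihood test) in R 4.3.3, on the 9 OCI-Ly1 libraries with TMM scaling and edgeR's low-count filter, with Benjamini-Hochberg adjustment over all 15638 genes tested. CPM values are TMM-scaled. The difference between lines was an interaction term over all 18 libraries. The deposited TPM served for markers and for alternatives on log2(TPM + 1) and log2(TPM + 0.1) in limma 3.58.1. Such folds understate changes of low genes. DESeq2 1.42.0 was a further alternative, with other scalings, no low-count filter, only 6 libraries, a replicate block and leaving out each library. The scripts were tested on simulated data.

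Genes were named by rule: the 10 largest rises and falls, up to 3 members per list, the 3 largest changes in CPM each way, the 3 largest differences between lines each way, the 3 highest genes counted only at 500 nM, and KDM4A, KDM4B and KDM4C. Candidates had to be called (adjusted p under 0.05), with a mean of 5 CPM or more at one of the doses, over 3 counts in each of the 6 libraries and no overlap (for the difference between lines, over 3 counts in each of the 12 libraries of both doses). Other members were named after their values were seen. Not all genes that the rule names are reported here. The comparison and the lists were chosen with earlier results of these data known. RefSeq promoters (GRCh38.p14) matched 11601 of 15638 tested genes (74.2%), so a motif check over all called genes is void, and shares are given only for lists with at least 80% matched. The triplicates differed by more than sampling noise, with a chi-square per degree of freedom of 4.33 to 9.85 between OCI-Ly1 libraries of a group.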

Additional observations from a re-analysis of the deposited data

Results flagged for a closer look

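The dose step differed between OCI-Ly1 and TMD8 by a test of the difference itself (interaction term, edgeR adjusted p under 0.05): it was more positive in OCI-Ly1 for 2579 genes and more negative for 1374. Of 137 genes chosen by the naming rule and tested in both lines, 108 differed, against 23.8% of all 16604 genes. The rule mostly picks genes for large dose steps in OCI-Ly1, and some for this difference itself. That choice favours a high count, so the count does not measure how far the lines differ. Not all of the 137 are described in the text. Among called genes with over 3 counts in each of the 12 libraries of both doses and a mean of 5 CPM or more in some dose group, the 3 largest positive differences were those of FERMT2 (4.24 on the log2 scale), P2RX1 (4.01) and TUBB2B (3.79). The 3 largest negative ones were those of HSPA1A (-3.28, a gene whose reads can be split with its copy HSPA1B), PRX (-2.86) and EPB41L4B (-2.13). Line and growth medium cannot be told apart in these differences.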

How the results depend on the processing

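Of 141 values of genes chosen by the naming rule, not all of them described in the text, 134 kept their direction and their side of the threshold under every alternative run; the others were AHRR, HLA-DMB, KDM4B, KDM4C, NLRC5, RPPH1 and TIPARP. Genes past a log2 fold change of 1 numbered 388 on log2(TPM + 1) and 386 when centred, where the pseudocount shrinks low genes. Genes called lower numbered 1854 on log2(TPM + 0.1), 1860 on log2(TPM + 1) and 5403 when centred, and genes called higher 2519 when centred. For the difference between lines, log2(TPM + 1) gave 6456 and 484. Leaving out each library gave 3266 to 3715 higher, 2753 to 3292 lower and 956 to 1089 past 1, and 2174 to 2727 and 1089 to 1404 between lines. With a replicate block the counts were 4103, 3437 and 1019, and 2771 and 1493 between lines. Same-numbered libraries did not deviate together (r = -0.00124, 0.00648 and -0.00992), so no shared effect of the replicate number was seen. Whether such libraries were prepared together is not given. The block also put KDM4B past the threshold (0.22, edgeR adjusted p = 0.03). The medians of 13 of 42 lists changed sign under some alternative. Depth limits genes of a few counts, where 3 counts equal about 0.135 CPM.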
